A study of Rattus norvegicus with 18 samples.

Results

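The genes described here are the myogenic regulators of skeletal muscle, the MEF2 transcription factors, M-cadherin and myostatin. They were chosen by symbol: Myod1, Myog, Myf5, Myf6, Pax7, Mef2a, Mef2c, Mef2d, Cdh15 and Mstn, 10 genes in all. On the array, 13 probe sets carried 1 of these symbols and no other, out of 31042 probe sets, and they covered 8 of the 10 genes. Myf5 and Pax7 had no probe set of their own and were not analysed here. All 13 probe sets were among the 12238 tested, whose signal was 400 or more on 1 array or several.

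The arrays measured RNA from 3 muscles of female Lewis rats: the diaphragm (DIA), which drives breathing, the extensor digitorum longus (EDL), a fast muscle of the lower leg, and the rectus muscles of the eye (EOM). Experimental autoimmune myasthenia gravis (EAMG) was induced at an age of 6 to 8 weeks with 40 µg of acetylcholine receptor (AChR) from the electric organ of Torpedo, given in complete Freund's adjuvant with 0.5 mg of added mycobacterium, and tissue was taken 6 weeks later. Control rats were given the adjuvant but no AChR, so that both groups carried the same adjuvant. Each of the 6 groups of muscle and treatment had 3 arrays, 18 in all. Every array held RNA pooled from several rats, 4 to 5 by the methods and 3 by the labels, so the differences between single rats were not seen. The p-values measure the spread between pools, with the 18 arrays taken as independent. The methods describe all 3 muscles as dissected from the rats, so arrays of different muscles may share animals, which the labels do not state. In the main fit, the comparisons between muscles and the average over the muscles do not allow for this.

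MyoD (Myod1), Myf5, myogenin (Myog) and MRF4 (Myf6) are basic helix-loop-helix factors that pair with E proteins, bind E-boxes and switch on the muscle programme. MyoD and Myf5 commit precursor cells, myogenin drives their differentiation, and MRF4 is the family member most abundant in adult fibres. MyoD transcripts are known to be richer in fast muscle and myogenin transcripts in slow muscle, and both rise when a fibre loses its nerve. The MEF2 factors bind an AT-rich site, act together with the MyoD family and respond to calcium signals. Myostatin (Mstn) is a secreted growth factor that limits muscle mass, M-cadherin (Cdh15) joins satellite cells to the fibre, and Pax7 marks satellite cells. Muscle is a bulk sample here, so fewer cells of a type and less RNA per cell cannot be told apart.

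The signals are linear scaled intensities, and differences are given on the log2 scale between group means with the standard error (SE) of the limma fit. The muscle labels were checked with 4 measured marker genes of extraocular muscle, whose summed signal was 67260 to 76216 in EOM control arrays, 921 to 1468 in EDL control and 305 to 330 in DIA control. Some arrays stood apart in ways that touch the results. On array EDL EAMG 2, 9 of 10 slow-fibre genes were higher than on any other EDL array, with a summed signal of 323683. On array DIA EAMG 3 the ratio of 3' to 5' GAPDH signal was 2.66, against 1.06 to 1.33 on the other 17 arrays. The added poly-A RNA controls gave 564 and 800 on EOM EAMG 2 and DIA EAMG 2 and 11110 or more elsewhere. Array EOM EAMG 3 had summed signals of 4860 for surface epithelium genes, against 722 to 1642 in EOM control, of 22990 for macrophage genes, against 6890 to 14399, and of 147843 for skeletal muscle genes, against 195351 to 210689. The median signal of the 18 arrays lay between 129 and 163.

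The control muscles were compared first. A probe set passed where limma gave an adjusted p under 0.05. Between EOM and EDL control muscle 6 of the 13 probe sets passed, and 41.4% of all probe sets did. Between DIA and EDL control muscle 6 of 13 passed, against 24.8% of all. Between EOM and DIA control muscle 1 of 13 passed, against 21.3% of all. The probe sets that passed against EDL were those of Myod1, Myog, Myf6, both of Mef2c and 1 of Mef2a, the same in EOM and in DIA. EDL control arrays are common to both of these comparisons. Myog and Myf6 were lower in EDL, and Myod1, Mef2c and Mef2a were higher there.

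**Figure D1:**
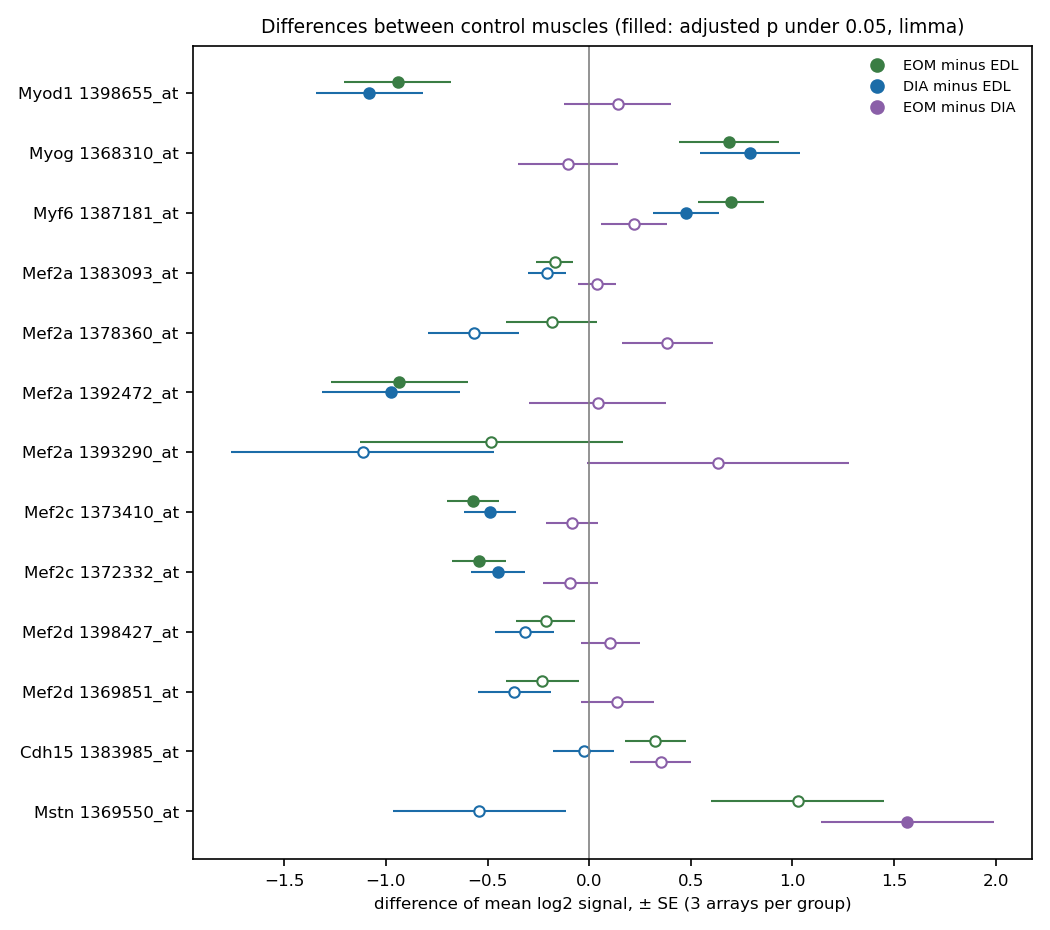
Difference of mean log2 signal between control muscles (horizontal axis, with SE, 3 arrays per group) for the 13 probe sets. Filled points had an adjusted p under 0.05 in limma: in EOM minus EDL and DIA minus EDL these are Myod1, Myog, Myf6, Mef2a 1392472_at and both Mef2c probe sets, and in EOM minus DIA only Mstn, at 1.56.

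In EAMG, no probe set of these genes passed in DIA, where 2.68% of all probe sets did. In EDL 1 of 13 passed, Myf6, against 6.59% of all. With the replicate number as a block, given since same-numbered EDL arrays deviated together, it was 2 of 13, Myf6 and Myod1, against 8.58% of all. In EOM none passed, against 1.50% of all. Without the adjustment, limma gave a p under 0.05 for 6 of the 13 in EDL, 5 in EOM and 1 in DIA, against 23.7%, 13.1% and 19.9% of all probe sets. Averaged over the 3 muscles, 2 of 13 passed, Myog upward and Mef2c 1373410_at downward, against 20.4% of all. The 3 EAMG arrays did not overlap with the 3 control arrays for 4 of 13 probe sets in DIA (1 above, 3 below), 5 in EDL (1 above, 4 below) and 7 in EOM (2 above, 5 below), and for 24.4%, 25.0% and 24.5% of all probe sets. The 13 had median EAMG changes of -0.15 (DIA), -0.10 (EDL) and -0.09 (EOM), and all probe sets tested had medians of 0.01, -0.00 and 0.00. Mef2a counted 4 times among the 13 and Mef2c and Mef2d 2 times each, so these counts and medians are not of separate genes. The 5 below in EOM held both probe sets of Mef2c and of Mef2d. By the brightest probe set of each gene, the EDL changes were 0.90 (Mstn), 0.75 (Myf6), 0.61 (Myog), 0.17 (Mef2d), 0.04 (Cdh15), -0.21 (Mef2a), -0.21 (Mef2c) and -0.76 (Myod1). Each EAMG array was also set against each control array of its muscle, and a rule asked for 2-fold in 7 of these 9 ratios. None of the 13 met it in any muscle, and 0.793% (DIA), 0.882% (EDL) and 0.858% (EOM) of all probe sets did. The most such ratios a member had was 4, in EDL.

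The EAMG changes were also compared between muscles. None of the 13 passed for EDL minus DIA, where 0.0163% of all probe sets did, for EOM minus DIA, again with 0.0163%, or for EOM minus EDL, with 0.106%. The unadjusted p was under 0.05 for 2, 0 and 4 of the 13 in these limma contrasts, and for 5.31%, 6.50% and 10.1% of all probe sets. A change that passed in 1 muscle is therefore not shown to differ from the change in another.

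**Figure D2:**
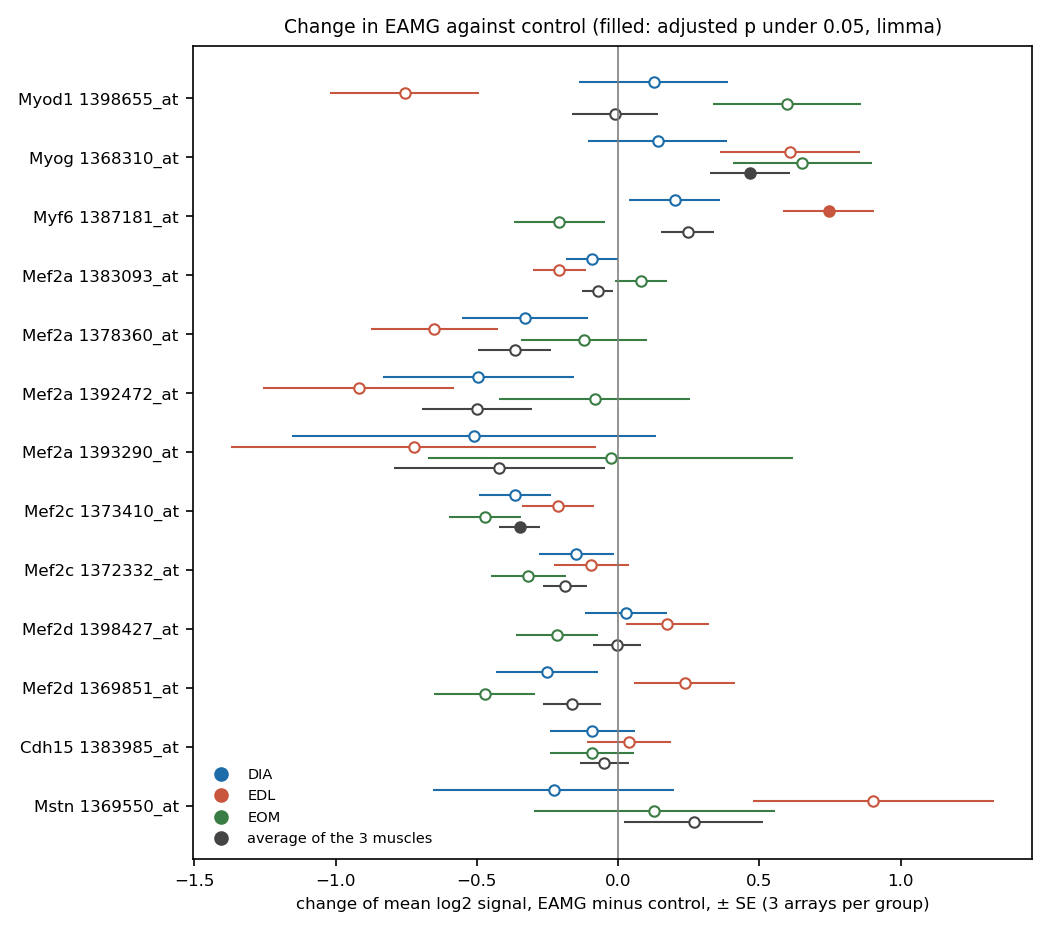
Change of mean log2 signal in EAMG against control (horizontal axis, with SE, 3 arrays per group) for the 13 probe sets in DIA, EDL, EOM and averaged over the 3 muscles. Filled points had an adjusted p under 0.05 in limma and are 3 in number: Myf6 in EDL at 0.75, Myog at 0.47 in the average and Mef2c 1373410_at at -0.35 in the average.

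Myod1 (1398655_at), which encodes the MyoD factor, gave signals of 2013, 1962 and 3002 on the EDL control arrays, 985, 910 and 1396 in DIA and 1198, 1045 and 1335 in EOM. All EDL control arrays lay above all control arrays of the other muscles. Myod1 was lower than in EDL by a log2 difference of -1.08 in DIA (SE 0.26, adjusted p = 0.00802) and -0.94 in EOM (adjusted p = 0.00993), which is 0.472 and 0.520 times the EDL level. These calls held in every alternative that was run, although leaving out EDL control 3, the highest array, brought the adjusted p for EOM to 0.0497. DIA and EOM did not differ beyond their spread, with a log2 difference of 0.14 (SE 0.26, adjusted p = 0.774).

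In EAMG the Myod1 signals were 1659, 796 and 1864 in EDL, 1864, 1906 and 1630 in EOM, and 1201, 1098 and 1234 in DIA. The EDL arrays lay below all their controls, the EOM arrays lay above all theirs, and the DIA groups overlapped. The changes were -0.76 in EDL (SE 0.26, adjusted p = 0.0968), 0.60 in EOM (adjusted p = 0.340) and 0.13 in DIA (adjusted p = 0.827), none of which passed. With the replicate number as a block the EDL change did pass (SE 0.22, adjusted p = 0.0485). The EOM change minus the EDL change was 1.35 (SE 0.37, adjusted p = 0.205), with an unadjusted limma p of 0.00243. Without array EDL EAMG 2, which had the lowest Myod1 signal of the 18 and the high slow-fibre signal, the change in EDL was -0.37 (adjusted p = 0.333). The average over the 3 muscles was -0.01, since the muscles lay on opposite sides of 0.

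Myog (1368310_at), which encodes myogenin, gave signals of 640, 635 and 742 on the EDL control arrays, 1222, 1018 and 1256 in DIA and 1025, 1003 and 1225 in EOM. The EDL control arrays were all below those of both other muscles, the reverse of Myod1. The log2 difference from EDL was 0.79 in DIA (SE 0.25, adjusted p = 0.0300) and 0.69 in EOM (adjusted p = 0.0366). Neither call held in every alternative: with no signal minimum the adjusted p was 0.102 in DIA and 0.107 in EOM, and 4 and 5 of the 18 fits that left out 1 array lost them. The EOM call was also lost with quantile normalization (adjusted p = 0.0594) and with EOM and EDL fitted alone (0.0717).

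In EAMG the Myog signals were 2188, 1289 and 1732 in EOM, 623, 1449 and 1184 in EDL and 1220, 1241 and 1379 in DIA. The EOM arrays lay above all their controls, and in EDL 2 arrays did while EDL EAMG 1 lay below all 3. The change was 0.65 in EOM (SE 0.25, adjusted p = 0.249), 0.61 in EDL (adjusted p = 0.151) and 0.14 in DIA (adjusted p = 0.792). Averaged over the muscles Myog rose by 0.47 (SE 0.14, adjusted p = 0.0319), or 1.38-fold. This call was lost in 10 of the 18 fits without 1 array, with a highest adjusted p of 0.0635 without EDL EAMG 3. It was also lost with no signal minimum (adjusted p = 0.105) and without EDL EAMG 2 and DIA EAMG 3 together (0.0872). In EDL alone, the change was 0.97 without EDL EAMG 1 (adjusted p = 0.00716) and 0.36 without EDL EAMG 2 (adjusted p = 0.450).

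The log2 signal of Myod1 minus that of Myog was followed across arrays, since a difference between arrays shows unequal change of the 2 transcripts. Between probe sets its zero has no meaning. It was 1.65, 1.63 and 2.02 on the EDL control arrays, and 1.41, -0.86 and 0.66 on EDL EAMG 1, 2 and 3. All EDL EAMG arrays were thus below all EDL controls. In DIA it lay between -0.31 and 0.15 in controls and between -0.18 and -0.02 in EAMG, and in EOM between 0.06 and 0.22 in controls and -0.23 and 0.56 in EAMG, with overlap in both muscles. The slow-fibre genes had a summed signal of 102222 to 120278 in EDL control, 229548 to 269061 in all DIA arrays and 94326 to 117690 in all EOM arrays. EDL EAMG 2, at 323683, stood above the DIA arrays in this sum and below them in the Myod1 to Myog difference. EDL EAMG 1 and 3 also lay below the EDL controls in that difference, with slow-fibre sums of 115073 and 128697. Their mean log2 signals of the slow-fibre genes were 13.276 and 13.399, above the 13.022, 13.272 and 13.127 of the EDL controls. The part of fibre type in the EDL values was not tested.

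**Figure D3:**
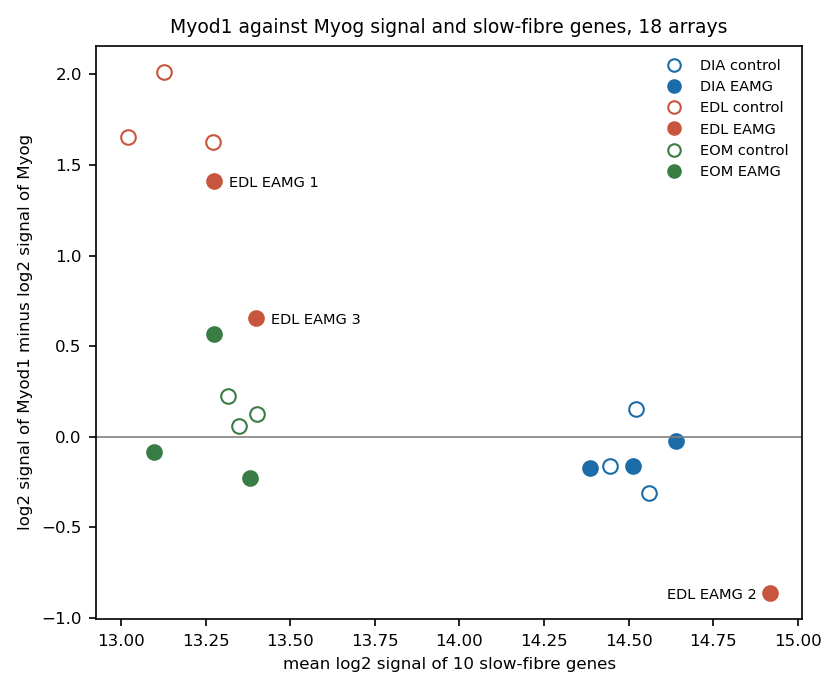
Log2 signal of Myod1 minus log2 signal of Myog (vertical axis) against the mean log2 signal of 10 slow-fibre genes (horizontal axis), 1 point per array. The 3 EDL control arrays lie highest, at 1.63 to 2.02, and EDL EAMG 2 lies lowest, at -0.86, and farthest to the right.

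Myf6 (1387181_at), which encodes MRF4, gave 3753, 4929 and 6432 on the EDL control arrays and 6985, 8446 and 9508 on the EDL EAMG arrays. All EDL EAMG arrays were above all controls, and the spread among the controls was wide, with a mean of 5038 ± 1343 (SD, n = 3) against 8313 ± 1267. Myf6 rose in EDL by 0.75 (SE 0.16, adjusted p = 0.0163), or 1.68-fold. The call did not hold with no signal minimum (adjusted p = 0.0861), with EDL fitted alone (0.184), without the arrays of high slow-fibre signal and high GAPDH ratio (0.0674), or without any 1 of EDL control 1 (0.0755), EDL control 2 (0.0526), EDL EAMG 2 (0.0606) and EDL EAMG 3 (0.0753). In these fits the change lay between 0.55 and 0.75. In DIA the signals were 7327, 6103 and 7164 in control and 7557, 7809 and 8252 in EAMG arrays, all EAMG above all controls, with a change of 0.20 (adjusted p = 0.511). In EOM they were 7558, 8141 and 8247 in control and 6779, 7111 and 6830 in EAMG, all EAMG below all controls, with a change of -0.21 (adjusted p = 0.631). The EOM change minus the EDL change was -0.95 (SE 0.23, adjusted p = 0.143), and without EDL control 3 it was -1.15 (adjusted p = 0.0311).

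Among the control muscles, Myf6 was higher than in EDL by 0.70 in EOM (SE 0.16, adjusted p = 0.00284), a call that no alternative changed, and by 0.48 in DIA (adjusted p = 0.0424), which 14 of 27 alternatives lost. DIA and EDL controls overlapped, and the EOM controls lay above both. The mean in EDL EAMG, 8313 ± 1267, stood beside 7982 ± 371 in EOM control and 6865 ± 665 in DIA control (SD, n = 3), a comparison that was not tested.

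Windows of 300 bases around the start of the gene (250 before it and 50 after) from RefSeq on GRCr8 were found for 7 of the 10 genes, and not for Myod1, Mef2c and Mstn. They were searched on both strands for E-boxes (CANNTG) and for a MEF2 site (CTANNNNTA with A or T at every N). An E-box was in 72.1% of 33469 promoter windows of the rat and a MEF2 site in 3.77%. Shown are Myog and Myf6, the members that passed upward in EAMG, both of which held both motifs. The Myog window (chr13:48297226-48297525, plus strand) had E-boxes 157 and 31 bases before the start and a MEF2 match 83 before it. The Myf6 window (chr7:44701264-44701563, minus strand) had an E-box 29 bases before the start and a MEF2 match 76 before it that overlaps a TATAAA 71 before it. Capitals mark these E-boxes and MEF2 matches.
Myog: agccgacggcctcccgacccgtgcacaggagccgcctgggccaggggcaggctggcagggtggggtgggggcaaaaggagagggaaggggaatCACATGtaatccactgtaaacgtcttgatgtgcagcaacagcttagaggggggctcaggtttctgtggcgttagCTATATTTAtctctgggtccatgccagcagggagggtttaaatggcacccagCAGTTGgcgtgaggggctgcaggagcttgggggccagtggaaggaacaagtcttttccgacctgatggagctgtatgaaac
Myf6: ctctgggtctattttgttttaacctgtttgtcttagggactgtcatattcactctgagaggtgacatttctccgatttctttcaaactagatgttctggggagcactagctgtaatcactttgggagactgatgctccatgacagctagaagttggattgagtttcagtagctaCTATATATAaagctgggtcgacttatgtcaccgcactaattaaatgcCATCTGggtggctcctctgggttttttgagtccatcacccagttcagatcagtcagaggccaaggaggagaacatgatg
Among the other windows, that of Mef2a had an overlapping pair of MEF2 matches and no E-box, that of Cdh15 had 3 E-boxes and no MEF2 match, and those of Myf5, Pax7 and Mef2d had neither. A match of letters is a description of the window and says nothing on binding in these muscles.

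Mef2c, a MEF2 factor needed for the integrity of the sarcomere, was followed by 2 probe sets. Its brighter one (1373410_at) gave 18300, 17682 and 15524 in DIA control and 14997, 12759 and 12298 in DIA EAMG arrays. In EDL it gave 25775, 24400 and 21962 in control and 21844, 19316 and 21106 in EAMG, and in EOM 15429, 17365 and 15726 in control and 13813, 11400 and 10044 in EAMG. In each of the 3 muscles every EAMG array lay below every control array, by the narrowest gap in EDL. The changes of the muscles taken singly did not pass: -0.47 in EOM (SE 0.13, adjusted p = 0.0879), -0.36 in DIA (adjusted p = 0.131) and -0.21 in EDL (adjusted p = 0.337). Averaged over the muscles Mef2c fell by 0.35 on the log2 scale (SE 0.07, adjusted p = 0.00462), to 0.785 of control, and this call held in all 26 alternatives, with adjusted p between 0.00170 and 0.0324. It was the only EAMG call of these genes to do so. Without EOM EAMG 3 the average was -0.31 (adjusted p = 0.00887) and the change in EOM -0.36 (adjusted p = 0.245). The EOM EAMG arrays 1, 2 and 3 had skeletal muscle sums of 247179, 187396 and 147843, highest and lowest on the same arrays as Mef2c.

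The dimmer Mef2c probe set (1372332_at) had an average change of -0.19 (SE 0.08, adjusted p = 0.0975), which did not pass, with -0.32 in EOM, -0.15 in DIA and -0.10 in EDL. Its EAMG arrays were below all controls in EOM and overlapped with them in DIA and EDL. Both probe sets were lower in control EOM than in control EDL, by -0.57 (adjusted p = 0.00224) and -0.54 (adjusted p = 0.00430), calls that held in every alternative. With quantile normalization the sizes were smaller, -0.40 and -0.37. Both probe sets were also lower in control DIA than in EDL, by -0.49 (adjusted p = 0.0122) and -0.45 (adjusted p = 0.0230), and these were lost in 3 and 6 alternatives. The 7 measured skeletal muscle genes summed to 195351 to 210689 in EOM control, 218504 to 233483 in DIA control and 245946 to 305126 in EDL control. Mef2c is also active in endothelial cells. The summed signal of 9 measured endothelial genes, all of which reached 400, was 5697 to 7398 in EDL control, 7550 to 9748 in DIA control and 8339 to 9384 in EOM control. In EAMG it was 8294 to 9731 in DIA, 5776 to 6552 in EDL and 7922 to 8463 in EOM. The 8 measured fast-fibre genes summed to 201003 to 212064 in DIA control and 164659 to 172030 in DIA EAMG, to 291314 to 364341 and 272580 to 295734 in EDL, and to 219679 to 236076 and 165256 to 268792 in EOM. The fast-fibre sums of EAMG and control arrays did not overlap in DIA and overlapped in EDL and EOM. Of 5 tested fibroblast genes 1 fell in DIA, 3 in EDL, none in EOM and 3 in the average, with medians of -0.98, -1.07, -0.04 and -0.77. The 6 measured fibroblast genes summed to 35588 to 41518 in DIA control and 22727 to 30017 in DIA EAMG, to 17358 to 30597 and 13740 to 18899 in EDL, and to 51476 to 54731 and 46945 to 52103 in EOM. The 10 measured macrophage genes summed to 7155 to 10534 in DIA control and 11007 to 15136 in DIA EAMG, to 1871 to 4113 and 1799 to 4468 in EDL, and to 6890 to 14399 and 10608 to 22990 in EOM. The sums of EAMG and control did not overlap in DIA for either cell type. The part of endothelial, fast-fibre, fibroblast, macrophage and total muscle signal in the Mef2c values was not tested.

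**Figure D4:**
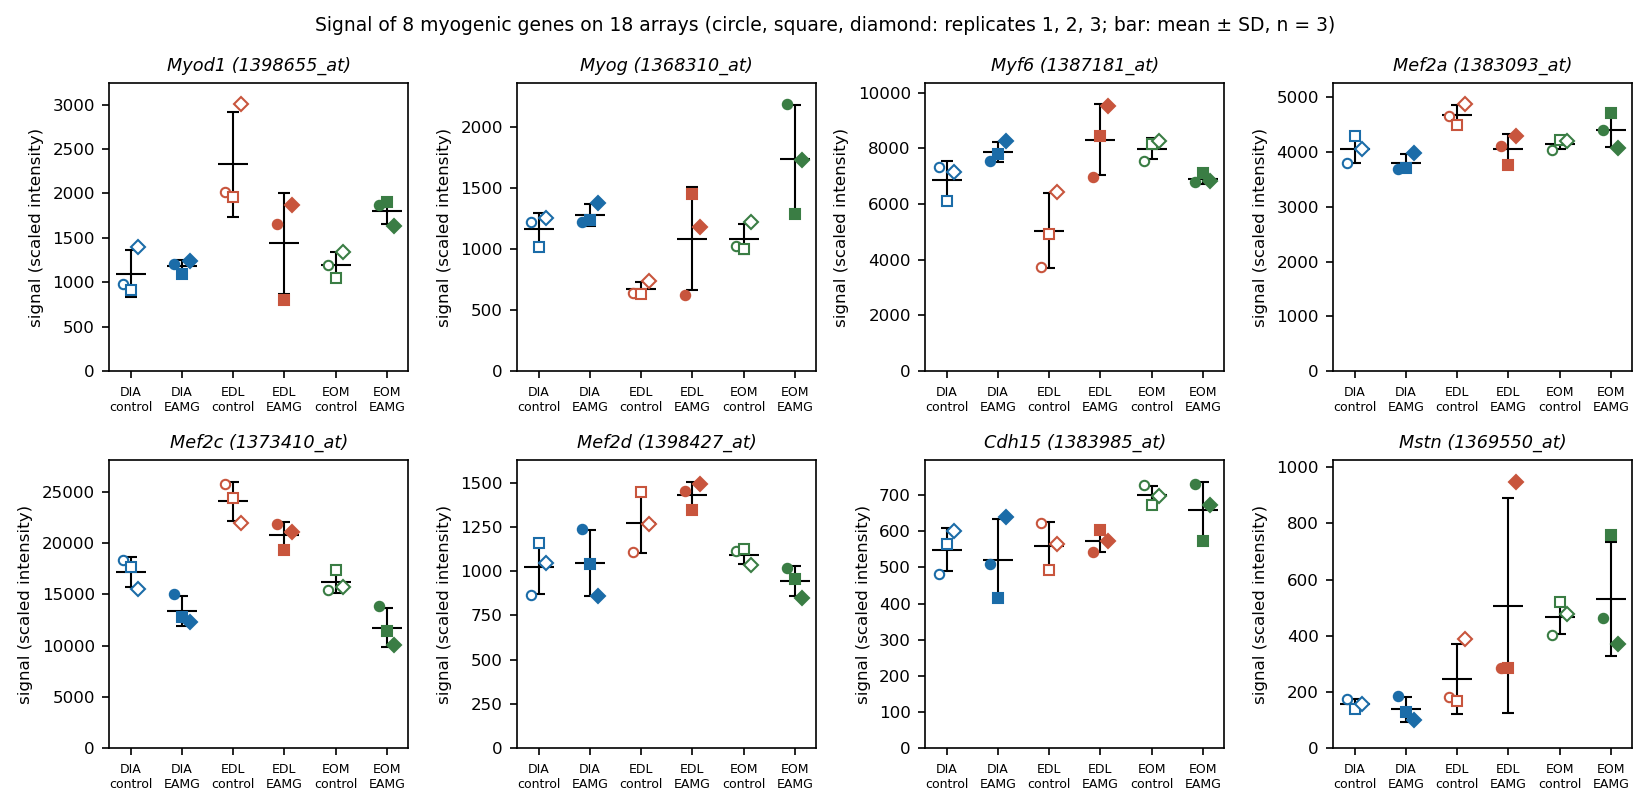
Signal (vertical axis, linear scaled intensity from 0) of the 8 genes, each by its brightest probe set, on 18 arrays. Open symbols are control and filled symbols EAMG arrays, and lines are the mean and SD of 3 arrays. In the Mef2c panel the EAMG arrays lie below the controls in all 3 muscles, while the Myod1 panel shows them below in EDL and above in EOM.

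Mef2a, which is expressed widely and is abundant in adult muscle, had 4 probe sets that did not move alike. The brightest (1383093_at) was steady, from 3699 to 4873 over the 18 arrays, with a change of -0.21 in EDL (adjusted p = 0.190), -0.09 in DIA and 0.08 in EOM. The third brightest (1392472_at) gave 2706, 2008 and 1462 in EDL control, 1165, 1027 and 873 in DIA control and 981, 1307 and 888 in EOM control. All EDL control arrays were above the others. It was lower than in EDL by -0.93 in EOM (SE 0.34, adjusted p = 0.0379) and -0.98 in DIA (adjusted p = 0.0471), and the brightest by -0.17 (adjusted p = 0.156) and -0.21 (adjusted p = 0.116). The calls of 1392472_at were lost in 6 and 12 alternatives, and without EDL control 1, the highest array, the adjusted p was 0.154 and 0.179.

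In EAMG the 3 dimmer Mef2a probe sets had changes of -0.65 (1378360_at, adjusted p = 0.0936), -0.92 (1392472_at, 0.116) and -0.72 (1393290_at, 0.535) in EDL, and -0.33, -0.49 and -0.51 in DIA, none of which passed. In EOM they had -0.12, -0.08 and -0.03. In EDL and DIA these values rest in large part on single arrays. EDL EAMG 2 gave 1177, 612 and 174 where the other EDL arrays gave 2371 to 3198, 1288 to 2706 and 692 to 1072. DIA EAMG 3, with the high GAPDH ratio, gave 1350, 503 and 98, the lowest of the DIA arrays for each. Without EDL EAMG 2 the EDL changes were -0.29, -0.53 and 0.05, and without DIA EAMG 3 the DIA changes were -0.19, -0.24 and 0.22. The brightest probe set on these arrays lay at -0.15 and -0.07 from its own mean over the 18 arrays. The part of RNA quality and fibre type in this was not tested.

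**Figure D5:**
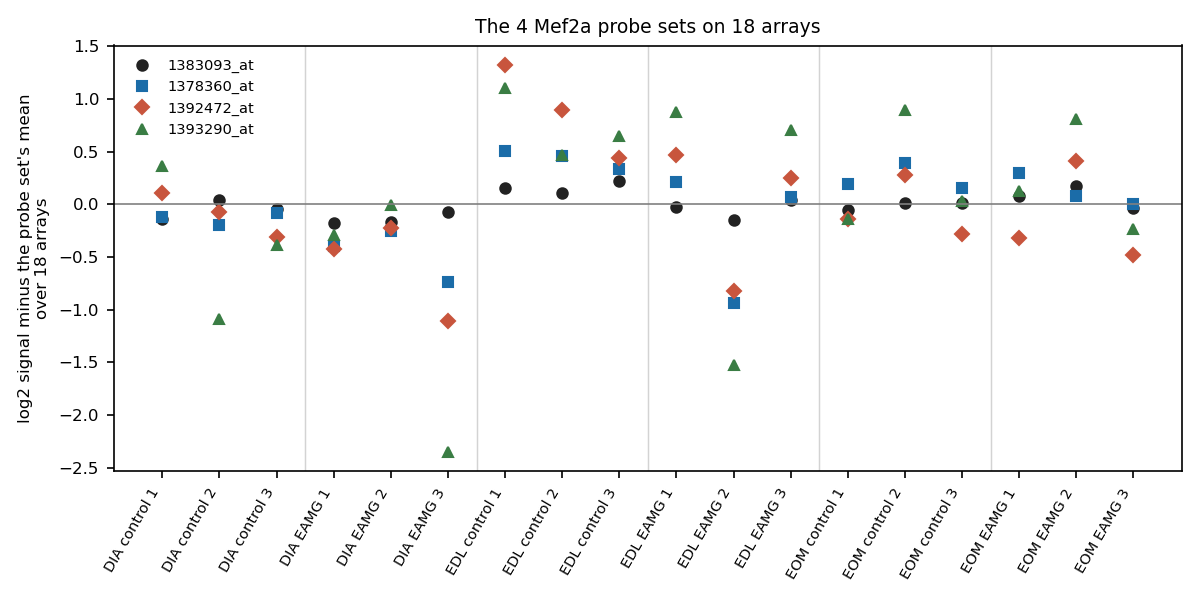
Log2 signal of the 4 Mef2a probe sets on each of the 18 arrays, each minus the mean of that probe set (vertical axis). On EDL EAMG 2 and DIA EAMG 3 the 3 dimmer probe sets lie far below 0, down to -1.52 and -2.35, while the brightest, 1383093_at, stays near 0.

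Mef2d, the MEF2 member from which a muscle isoform is spliced, gave 1116, 1125 and 1033 in EOM control and 1018, 958 and 851 in EOM EAMG arrays on its brighter probe set (1398427_at). The dimmer one (1369851_at) gave 509, 554 and 518 in control and 317, 396 and 436 in EAMG. On both, all EOM EAMG arrays were below all controls, but the changes of -0.22 (adjusted p = 0.575) and -0.47 (adjusted p = 0.250) did not pass. In EDL both had positive changes, 0.17 and 0.24 (adjusted p = 0.502 and 0.456), and the groups overlapped. The EOM change minus the EDL change was -0.39 (adjusted p = 0.559) and -0.71 (adjusted p = 0.352). In DIA they were 0.03 and -0.25. No difference between control muscles passed, with log2 values from -0.37 to 0.14.

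Cdh15 (1383985_at), which encodes M-cadherin, varied least of the genes with a single probe set, from 416 to 730 over the 18 arrays. The EOM control arrays, at 728, 673 and 697, lay above the EDL control arrays, at 623, 493 and 565, and the DIA control arrays, at 483, 566 and 600. The log2 difference was 0.33 from EDL (SE 0.15, adjusted p = 0.0941) and 0.35 from DIA (adjusted p = 0.112), so neither passed. The EAMG changes were -0.09 in DIA, 0.04 in EDL and -0.09 in EOM, with a SE of 0.15 and overlap in each muscle (adjusted p = 0.773, 0.907 and 0.845).

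Mstn (1369550_at) was dim and reached 400 on 6 of the 18 arrays. Its signals were 402, 521 and 478 on the EOM control arrays, 182, 168 and 391 in EDL control and 177, 139 and 157 in DIA control. All EOM control arrays lay above all control arrays of the other muscles. All DIA and EDL control arrays were below 400, the minimum that the methods set at several times background, so the size of the difference is uncertain. The difference from DIA was 1.56 (SE 0.43, adjusted p = 0.0157), and 1.13 (adjusted p = 0.0179) with 100 added to every signal. That from EDL was 1.02 (adjusted p = 0.0663). The call against DIA was lost with no signal minimum (adjusted p = 0.0585), without DIA control 2 (0.0523) and without EOM control 2 (0.0554).

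In EAMG the Mstn signals were 287, 286 and 949 in EDL, 186, 129 and 100 in DIA and 464, 759 and 371 in EOM. All 3 groups overlapped with their controls. The changes were 0.90 in EDL (SE 0.43, adjusted p = 0.213), -0.23 in DIA (adjusted p = 0.805) and 0.13 in EOM (adjusted p = 0.933). The EDL value depended on single arrays. Without EDL EAMG 3, at 949, it was 0.33 (adjusted p = 0.683), and without EDL control 3, at 391, it was 1.29 (adjusted p = 0.0832). Without EDL EAMG 1 or EDL EAMG 2 it was 1.19 (adjusted p = 0.115 and 0.176).

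The partners of these factors were described by lists of genes, each by its brightest tested probe set. The shares of all probe sets that passed, given above for each muscle and the average, are their background. Where the mean signals of both groups lay below 400, the change with 100 added to every signal is given in place of the plain one, since the plain log2 change of so dim a probe set is uncertain. Of 21 tested partners and inhibitors of the MyoD family, none passed in DIA or EOM, and 1 did in EDL, where the median was -0.04. It was Id2, which binds E proteins and keeps them from the MyoD family. Id2 fell by 1.37 on the log2 scale in EDL (SE 0.35, adjusted p = 0.0326), from 1193 ± 386 to 460 ± 138 (SD, n = 3). With the replicate block 2 passed in EDL, Id2 and Bhlhe41, both downward. Of 23 tested co-regulators and upstream kinases of MEF2, 1 passed in EDL and none in DIA or EOM. Sik1, a kinase that acts on class II histone deacetylases, the repressors of MEF2, rose in EDL from 135 ± 17.6 to 335 ± 67.7 (SD, n = 3), both below 400, with a change of 0.88 after 100 was added (adjusted p = 0.0157). With the replicate block 3 of the 23 passed in EDL, Sik1 and Vgll2 upward and Camk2g downward. In the average, 4 of these 23 rose and 3 fell, where 20.4% of all probe sets passed in either direction.

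Between control EOM and EDL, 10 of these 23 were lower in EOM and 4 higher, where 41.4% of all probe sets passed, with a median of -0.15 against 0.05 for all probe sets. Ppp3ca, Ppp3cb and Ppp3r1, subunits of the phosphatase calcineurin, were lower by -1.26, -0.78 and -0.63 (adjusted p = 2.88e-06, 1.91e-05 and 0.000176). The Camk2 kinases Camk2a, Camk2b, Camk2d and Camk2g were lower by -1.52, -0.49, -1.51 and -0.64. Rcan2, an inhibitor of calcineurin, was higher by 2.96 (adjusted p = 2.28e-08). These genes were singled out after their values were seen. Among the 21 MyoD family partners 6 were higher and 5 lower in EOM, and Id1 and Id3, of the same family as Id2, were higher by 0.99 and 1.54 (adjusted p = 0.000224 and 7.33e-06).

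In the myostatin pathway, 3 of 17 tested genes rose in EDL and none passed in DIA or EOM, against 6.59%, 2.68% and 1.50% of all probe sets. Smad7, an inhibitory SMAD induced by the pathway, rose from 120 ± 53.8 to 319 ± 153 (SD, n = 3), both below 400, with a change of 0.90 after 100 was added (adjusted p = 0.0294). Smad4, the common SMAD, rose by 0.54 (adjusted p = 0.0494), and Tgfbr1, a type I receptor, rose by 0.54 (adjusted p = 0.0499). The medians of the list were 0.06 in EDL, -0.04 in DIA and -0.04 in EOM. Between control EOM and EDL, 5 of the 17 were higher and 2 lower, a share near the 41.4% of all probe sets. Fst, encoding follistatin, which binds and blocks myostatin, had a mean signal of 657 in EOM and 154 in EDL control, 1.58 higher in EOM with 100 added (adjusted p = 1.32e-05), where the Mstn signal was also the highest among the control muscles.

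Of 17 tested genes of the satellite cell surface and of fusion, 1 passed in DIA, 2 in EDL and none in EOM, all upward. In DIA it was Myh3, the embryonic myosin, whose mean signals of 36.5 ± 40.2 in control and 186 ± 33.5 in EAMG (SD, n = 3) lay below 400, and with 100 added it did not pass (1.10, adjusted p = 0.115). In EDL they were Ncam1, a cell adhesion molecule of satellite cells and of fibres without a nerve, which rose by 1.13 (SE 0.14, adjusted p = 0.00146), and Sdc4, a heparan sulphate proteoglycan of satellite cells, by 1.06 (adjusted p = 0.0213). Between control EOM and EDL, 13 of the 17 were higher in EOM and 1 lower, and 41.4% of all probe sets passed. Myh8 and Myh3, the perinatal and embryonic myosins that adult EOM keeps, had mean signals of 23896 and 20978 in EOM and of 117 and 372 in EDL control. Both are also among the extraocular marker genes that checked the muscle labels. Their higher signal in EOM was known beforehand, so the count of 13 depends in part on the choice of the list. Markers of other cells moved in the same direction: 5 of 5 tested Schwann cell genes, 9 of 9 of macrophages and 4 of 5 of fibroblasts were higher in control EOM. The summed signals were 16323 to 19526 in EOM and 3465 to 7946 in EDL for Schwann cells, 6890 to 14399 and 1871 to 4113 for macrophages, and 51476 to 54731 and 17358 to 30597 for fibroblasts. Their part in the satellite cell list was not tested.

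Of 23 tested genes that are classic targets of MyoD and MEF2, 1 passed in DIA, 2 in EDL and 2 in EOM, all upward, while the medians were -0.10, -0.03 and -0.08. Cdkn1a, the cell cycle inhibitor p21, rose in DIA by 1.30 (SE 0.19, adjusted p = 0.00373). It rose in EDL by 2.59 (adjusted p = 1.11e-05). Chrnd, the delta subunit of the AChR, rose in EDL by 0.77 (SE 0.22, adjusted p = 0.0477), from 259 ± 26.1 to 457 ± 157, and with 100 added it did not pass (0.60, adjusted p = 0.0603). Chrna1, the alpha subunit, rose in EOM by 1.22 (SE 0.20, adjusted p = 0.00533), from 2564 ± 48.6 to 5990 ± 753, and Myl4, an atrial and embryonic light chain, by 0.58 (adjusted p = 0.0177). In the average over the muscles 5 of 23 rose and none fell, namely Cdkn1a, Chrna1, Chrne, Chrnd and Myl4, against 20.4% of all probe sets in either direction. The receptor subunits rose by 0.79 (Chrna1), 0.63 (Chrne) and 0.62 (Chrnd) in it.

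The genes with the pattern most like that of a member were found by the root mean square (RMS) difference of log2 signal over the 18 arrays, each probe set taken relative to its own mean, among 7811 named genes. This was done for the 4 members whose group means spanned at least 1 log2 unit. For Mef2c the nearest were Pgam2, the muscle phosphoglycerate mutase, at 0.15, Rasgrp3 at 0.15 and Ccar1 at 0.17, where the RMS of Mef2c about its own mean was 0.37. For Myod1 they were Nipal2 at 0.30, Stbd1, which binds glycogen, at 0.30 and Gca at 0.34, of an own RMS of 0.48. For Myog they were Gprasp1 at 0.26, Ddr1 at 0.27 and Mgp at 0.27, of an own RMS of 0.48. For Mstn they were Pdp1 at 0.54, Pinlyp at 0.57 and Thbs4 at 0.58, of an own RMS of 0.90. These are descriptions over arrays that share muscles and treatments.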

How the data were processed

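Muscle RNA from 6 groups was hybridised to 18 Affymetrix rat expression arrays, 3 per group. The deposited values are linear intensity signals, which the authors made with GCOS 2.0 from perfect match and mismatch probes and scaled to one target intensity on every array. The genome build does not enter such values. Groups were taken from the labels, and no column was left unused. No arrays were identical, and the highest correlation between any pair was r = 0.983. The number of arrays limits the precision.

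Probe sets that reached 400 on at least 1 array, the minimum of the study's methods, were kept (12238 of 31042). Log2 signals were fitted with limma 3.58.1 under R 4.3.3 (lmFit and eBayes) to all 18 arrays with 1 mean per group, p-values were adjusted by Benjamini and Hochberg over all 12238, and a probe set passed under 0.05. The authors' change calls, which these values do not hold, were stood in for by a rule of 7 of 9 ratios of 2-fold. The methods state that the study was repeated to give the 3 replicates, and the labels tie no number to a repeat. Deviations from the group means of same-numbered control and EAMG arrays correlated in EDL with r of 0.148 to 0.342 (3 of 3 pairs over 0.1), so blocked values are given there. The r was -0.03 to 0.18 in DIA and -0.01 to 0.19 in EOM, with 2 of 3 pairs over 0.1 in each. Symbols came from the platform annotation, where 20826 probe sets had 1 symbol, 436 several and 9780 none. The fit was tested on simulated data. Figures were drawn with matplotlib 3.10.9.

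Every member was named with all its probe sets, as were the 2 genes of each pathway list with the largest EAMG change among those that passed in a muscle, and the 3 nearest patterns of each member spanning 1 log2 unit. Other genes were named after their values were seen. The members and lists were chosen with earlier results of these data known. Alternatives changed the signal minimum, the normalization, the added signal, the variance model, the muscles fitted, the replicate block and the arrays kept.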

Additional observations from a re-analysis of the deposited data

How the results depend on the processing

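Of 130 member values, 16 passed, and 6 of these were lost in no alternative: Myod1 and both Mef2c probe sets between control EOM and EDL, Myf6 there, Myod1 between control DIA and EDL, and Mef2c 1373410_at in the average EAMG change. No value that passed turned its sign in any alternative, and 14 that did not pass did so in some. The count of member probe sets that passed in EDL EAMG (1) was 0 with no signal minimum, 0 with EDL alone, 0 without EDL EAMG 2 and DIA EAMG 3 (chosen after seeing the data) and 0 by the rule on ratios, and it ranged from 0 to 3 when 1 array was left out. In EOM EAMG (0) it was 1 with a mean-variance trend, Mef2c. In the average (2) it was 1 with no signal minimum and 1 without EDL EAMG 2 and DIA EAMG 3, and 1 to 5 with 1 array left out. Between control EOM and DIA (1) it was 0 with no signal minimum, 2 without those arrays of EDL and DIA, and 0 to 2 with 1 left out. Between control DIA and EDL (6) it was 1 with no signal minimum and 1 to 7 with 1 left out, and for the EOM minus EDL difference (0) 0 to 1. With no signal minimum the median change of all probe sets in DIA moved from 0.01 to -0.11.

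Over all 45 same-numbered pairs of arrays the correlation of deviations from the group means had a median of 0.09 and a range of -0.20 to 0.47, with 20 over 0.1, and in 23 of the pairs the correlation was highest for the shared number. As in the EAMG comparison in EDL, all 3 pairs of control EOM and control EDL were highest for the shared number, with r of 0.04 to 0.14. So were those of DIA EAMG and EOM EAMG, with r of 0.09, 0.47 and 0.24. Arrays of the same number were thus alike beyond the EAMG comparison in EDL, but not in every pair of groups. With the replicate number as a block, 2 members passed in EDL EAMG (Myf6 and Myod1), 1 in EOM EAMG (Mef2c) and 3 in the average (Mef2c, Myog and Myf6), and no other member call changed.

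Dim probe sets limit what can be seen. Mstn reached 400 on 6 arrays, and Mef2a 1393290_at and Mef2d 1369851_at each on 14.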
